A study of Mus musculus with 55 samples.

Results

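Myl4 and Emid1 are genes whose transcripts are prominent in the middle of B cell development in mouse bone marrow. Each was represented by 1 probe set that carried only its symbol in the array annotation, Myl4 (gene ID 17896) on the first array set and Emid1 (gene ID 140703) on the b array set. These are 2 of 13069 probe sets on the 2 array sets, and both were among the 10229 probe sets bright enough to be tested. The genes were chosen because their level rose in large pre-BII cells and was lost in mature cells. Those 2 differences are therefore described without a test, and tests are given only for immature against small pre-BII and small against large pre-BII cells.

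Total RNA of 5 sorted B lineage populations was hybridised to both array sets, which carry different probe sets. The gate was B220+c-kit+ for pre-BI cells, B220+CD25+sIg- with a split by size for large and small pre-BII cells, B220Low sIgM+ for immature B cells and B220hi sIgM+ for mature B cells. Pre-BI cells had 6 preparations and every later population had 5, which makes 26, each named by its sort number. The labels name no strain, age, genotype or treatment. Nothing in them ties a sort to an animal or a pool of animals, and the spread behind each p-value may thus be partly or wholly technical.

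Pre-BI cells carry the first heavy chain gene rearrangements, large pre-BII cells divide under the signal of the pre-B cell receptor, small pre-BII cells rest and rearrange the light chain genes, and immature cells are the first to show surface IgM. Myl4 encodes the embryonic and atrial essential light chain of myosin, a small subunit that wraps the neck of the heavy chain, and is best known from fetal muscle and the atria of the heart. Emid1 encodes a secreted protein with an EMI domain, a cysteine-rich module of matrix proteins, followed by collagen-like repeats. Neither gene is a classical stage marker of B cells.

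Both genes lie on mouse chromosome 11 but far apart, Emid1 at 5106265 to 5152322 and Myl4 at 104546017 to 104587215 (RefSeq genes, GRCm38.p6). Their promoter windows are shown because both transcripts were higher in large pre-BII than in pre-BI cells. Each window runs from 250 bases before to 50 bases after an annotated start, 5′ to 3′ on the gene's strand, and capitals mark every match to the motifs searched. The Myl4 window is chr11:104550413-104550712 on the plus strand, and the Emid1 windows, for 2 annotated starts, are chr11:5152181-5152480 and chr11:5150025-5150324 on the minus strand.
Myl4: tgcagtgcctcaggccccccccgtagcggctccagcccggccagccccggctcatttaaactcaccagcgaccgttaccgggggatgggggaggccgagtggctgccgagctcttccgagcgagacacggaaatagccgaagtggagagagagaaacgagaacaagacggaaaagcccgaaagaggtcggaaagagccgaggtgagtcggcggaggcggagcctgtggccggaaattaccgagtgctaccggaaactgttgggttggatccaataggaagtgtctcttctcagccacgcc
Emid1 first window: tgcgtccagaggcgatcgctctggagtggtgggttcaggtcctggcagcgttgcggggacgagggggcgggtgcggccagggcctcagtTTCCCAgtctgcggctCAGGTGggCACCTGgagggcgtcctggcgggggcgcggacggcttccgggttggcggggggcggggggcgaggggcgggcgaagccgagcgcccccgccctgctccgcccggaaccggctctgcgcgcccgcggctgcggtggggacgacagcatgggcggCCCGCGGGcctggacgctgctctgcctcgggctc
Emid1 second window: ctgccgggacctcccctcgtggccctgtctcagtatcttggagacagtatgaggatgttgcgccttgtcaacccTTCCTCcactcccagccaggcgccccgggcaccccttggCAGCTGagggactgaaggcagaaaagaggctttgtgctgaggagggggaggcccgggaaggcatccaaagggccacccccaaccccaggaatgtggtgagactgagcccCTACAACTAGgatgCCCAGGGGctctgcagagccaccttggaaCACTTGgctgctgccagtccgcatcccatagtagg

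Motifs were searched on both strands. They were CANNTG, known as the E box, in any form and singly in the form CAGCTG or else in the further form CAGGTG. The search also covered CCCNNGGG for the factor EBF1, GAGGAA for the Ets family, TGGGAA for the factor Ikaros, GTAAACA for the FoxO family, AGATAA for the family of erythroid zinc finger factors, TATAAA as the box of core promoters, and an IRF and a MEF2 motif. The Myl4 window held none of them, CANNTG included, which 72.3% of 32851 promoter windows hold. That window lies inside the gene, and no window at the gene's outer 5′ end (104546017) was searched. The result thus covers this 1 annotated start only. The first Emid1 window held CAGGTG at 2 places (20.2% of windows hold it), CCCNNGGG at 1 (13.7%) and TGGGAA at 1 (25.6%). The second Emid1 window held CAGCTG (16.3%), a further CANNTG match, CCCNNGGG, GAGGAA (28.3%) and a match to the MEF2 motif as searched (3.69%). The MEF2 motif was searched in a loose form that allows any base at its middle positions. The middle of this match held C as well as A, so it is not taken as a MEF2 site. CAGCTG and CAGGTG matches are also CANNTG matches. A match describes the letters only.

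The arrays were checked before the genes were described. Of 5 B lineage markers on the arrays, 4 (Ptprc, Cd79a, Cd79b and Ebf1) exceeded the noise limit in most preparations of every population, whereas Pax5 exceeded it in 1 of 26. The noise limit is 2 robust standard deviations of the negative intensities, 251 for first-set and 319 for b-set arrays. Of the genes that name the gates, Kit exceeded it in 2 of 26 preparations and Il2ra in 1, so the arrays bear little on those gates. Dntt, the terminal transferase of early precursors, averaged 8026 in pre-BI cells and 288 or less in every later population, and Fcer2a, a surface marker of mature B cells, averaged 6485 in mature and 1537 in immature cells and 84 or less before. On the first set, an array titled as a second one of mature B sort 1 was identical to that of mature B sort 11 in every value, and was kept once, as sort 11. The labels do not settle which title is right. If the array belongs to sort 1, mature cells have 4 preparations for Myl4, not 5. Without sort 11 the log2 difference of Myl4 between mature and immature cells was −3.39, against −3.49 with it.

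Myl4 formed an arch with its top in large pre-BII cells. Levels below are quantile-normalised intensities. In the 6 pre-BI preparations Myl4 ranged from 433 to 949 with a median of 575. In large pre-BII cells it was 5659, 4171, 4201, 3405 and 5247 in sorts 1, 2, 8, 9 and 10. Every large pre-BII preparation lay above every pre-BI preparation, and the fold between the population means was 7.50, on values raised to the noise limit. In bulk RNA of this kind, more cells with the transcript and more transcript per cell cannot be told apart.

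In small pre-BII cells Myl4 was 2594, 3680, 3479, 2801 and 3903 in sorts 1, 3, 8, 9 and 10, a range that overlapped large pre-BII cells. In immature cells it was 1279, 2296, 1478, 825 and 962 in sorts 1, 2, 8, 9 and 11. No immature preparation reached a small pre-BII preparation, while the lowest 2 immature values were close to the highest pre-BI value. In mature cells Myl4 was 31.9, 145, 200.4, 78.6 and 74.4 in sorts 1, 3, 8, 9 and 11. All 5 mature preparations lay under the noise limit, so Myl4 was at least 5.09-fold lower in mature than in immature cells and at least 2.37-fold lower in mature than in pre-BI cells. Of all probe sets 10.8% differed between mature and pre-BI cells, 4.72% higher and 6.07% lower.

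The mean of Myl4 was highest in large pre-BII cells (4537 ± 907), followed by small pre-BII cells (3292 ± 567), immature cells (1368 ± 579), pre-BI cells (623 ± 210) and mature cells (106 ± 66.4, SD, n = 6 for pre-BI and 5 for the others). Large and small pre-BII cells overlapped, as did immature and pre-BI cells, and the other neighbours in this order did not.

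Emid1 took a different path, with a plateau in the pre-BII cells and a top in immature cells. In the pre-BI preparations it ranged from 178 to 443 with a median of 394, and 5 of 6 exceeded the noise limit. In large pre-BII cells it was 1397, 993, 1467, 1631 and 1382 in sorts 1, 2, 8, 9 and 10. All of these lay above every pre-BI preparation, and the fold was 3.53.

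In small pre-BII cells Emid1 was 1589, 620.1, 1859, 1366 and 1256 in sorts 1, 3, 8, 9 and 10. Sort 3 lay below every large pre-BII preparation and the other 4 within or above their range. In immature cells Emid1 was 3922, 5894, 4921, 4743 and 3082 in sorts 1, 2, 8, 9 and 11, all above every preparation of every other population. In mature cells it was 171, 577, 545, 398 and 261 in sorts 1, 3, 8, 9 and 11, of which 3 exceeded the noise limit. Emid1 was thus 10.6-fold lower in mature than in immature cells, and the mature range overlapped that of pre-BI cells.

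The mean of Emid1 was highest in immature cells (4512 ± 1064), followed by large pre-BII cells (1374 ± 235), small pre-BII cells (1338 ± 463), mature cells (390.4 ± 176) and pre-BI cells (363 ± 98, SD, n = 6 for pre-BI and 5 for the others). Large and small pre-BII cells overlapped, and so did mature and pre-BI cells. As a share of its own highest population, Emid1 in large pre-BII cells stood at 30.5%, while Myl4 in immature cells stood at 30.2%. The plot of levels by preparation shows the crossed shapes.

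**Figure D1:**
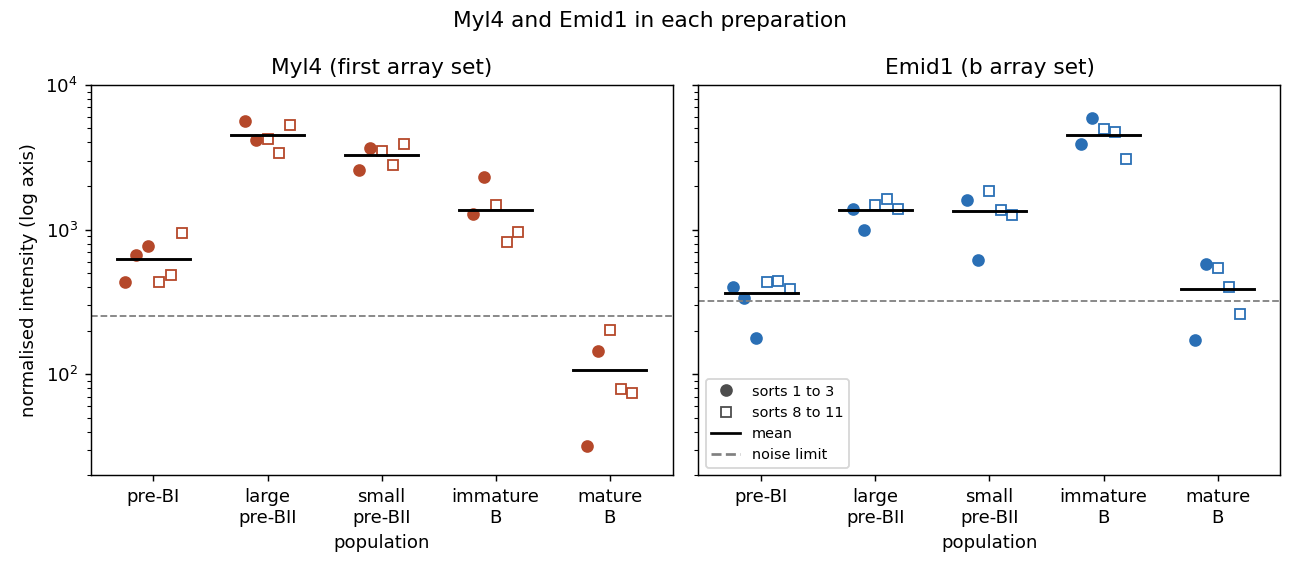
Normalised intensity (log axis) of Myl4 on the first array set and Emid1 on the b array set in the 26 preparations, by population in order of development. Filled circles are sorts 1 to 3, open squares sorts 8 to 11, bars are means and the dashed line is the noise limit. Myl4 is highest in large pre-BII cells (mean 4537) and Emid1 in immature B cells (mean 4512).

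The comparisons inside the middle stages were not the ones the genes were chosen on, although immature and large pre-BII cells each entered the choice on its high side, and the p-values below are not independent of it. Immature B cells were first set against small pre-BII cells, the step at which IgM reaches the surface. The 2 genes changed in opposite directions. Myl4 averaged 1368 in immature and 3292 in small pre-BII cells and fell 2.54-fold (log2 difference −1.34 ± 0.30 SE, 95% interval −1.95 to −0.74, limma adjusted p = 0.00601). Emid1 averaged 4512 in immature and 1338 in small pre-BII cells and rose 3.51-fold (1.81 ± 0.32, 95% interval 1.15 to 2.47, limma adjusted p = 0.000706). Of all 10229 tested probe sets 0.87% were lower and 1.28% higher at this step, 2.15% in all.

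Sorts 1, 8 and 9 were available for both of these populations. Myl4 in immature cells was 0.493, 0.425 and 0.294 of its level in small pre-BII cells of the same sort. Emid1 was 2.47, 2.65 and 3.47 times its level. Neither gene's groups overlapped, and an exact two-sided permutation test over the 10 preparations gave p = 0.00794 for each gene, the smallest that 5 against 5 allows.

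Since neither gene's groups overlapped, the direction had to be the same in sorts 8 to 11 and in sorts 1 to 3. Only the size and spread of the differences are informative there. Within sorts 8 to 11 Myl4 differed by −1.67 ± 0.39 (adjusted p = 0.0262) and Emid1 by 1.50 ± 0.29 (adjusted p = 0.00884) on the log2 scale, by limma. Within sorts 1 to 3, with 2 preparations a population, the differences were −0.85 ± 0.48 and 2.28 ± 0.62 and neither passed (adjusted p = 0.832 and 0.253). In the intensities as deposited, without scaling between arrays, the Myl4 call was lost (−1.16 ± 0.61, limma adjusted p = 0.899) and its ranges overlapped (632 to 3607 in immature and 787 to 5530 in small pre-BII cells). Emid1 kept its separation there, with 2966 to 5923 in immature and 1043 to 1740 in small pre-BII cells.

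**Figure D2:**
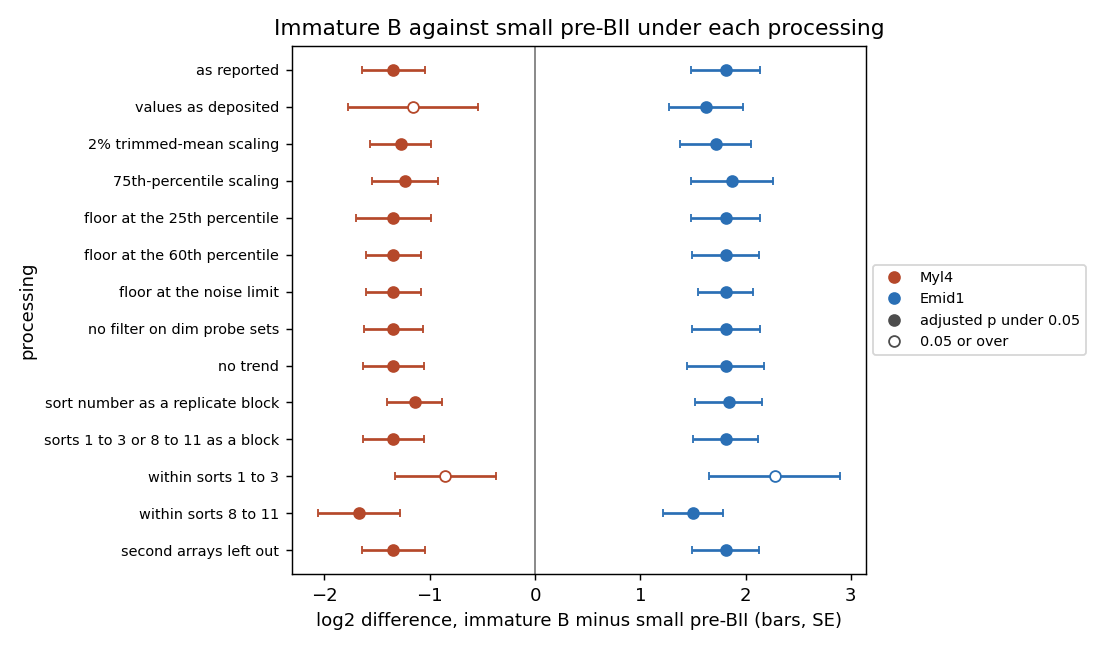
Log2 difference of Myl4 (left of 0) and Emid1 (right of 0), immature B minus small pre-BII, under the processing used and each alternative, with SE. Filled points have an adjusted p under 0.05. Myl4 is negative and Emid1 positive in each fit shown, of which 6 alternatives move the values at all, and the open points are Myl4 in the values as deposited and both genes within sorts 1 to 3.

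Small and large pre-BII cells share surface markers and differ in size and division. Neither gene passed the limma test between them, where 5.37% of probe sets did (2.04% higher and 3.32% lower in small pre-BII cells). Myl4 averaged 3292 in small and 4537 in large pre-BII cells (log2 difference −0.46 ± 0.30 SE, 95% interval −1.06 to 0.14, adjusted p = 0.518). Emid1 averaged 1338 in small and 1374 in large pre-BII cells (−0.11 ± 0.32, 95% interval −0.77 to 0.55, adjusted p = 0.928). Both intervals include 0, and that of Myl4 reaches further below it.

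Myl4 was lower in small than in large pre-BII cells in all 4 sorts common to both populations, at 0.459, 0.828, 0.823 and 0.744 of the large pre-BII level in sorts 1, 8, 9 and 10. The exact permutation test of this gene alone gave p = 0.0476, without adjustment over probe sets. For Emid1 the ratios were 1.14, 1.27, 0.838 and 0.908, with no common direction. Without small pre-BII sort 3 its difference was 0.15 (limma adjusted p = 0.905), so 1 preparation set its sign.

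Immature cells were also compared with large pre-BII cells, where 8.07% of probe sets differed (4.01% higher and 4.06% lower in immature cells). Both populations entered the choice of the genes, so the values are a description without a test. Myl4 was 3.49-fold lower (log2 difference −1.80 ± 0.30 SE) and Emid1 3.25-fold higher (1.70 ± 0.32 SE) in immature than in large pre-BII cells. Neither gene's immature preparations overlapped the large pre-BII preparations.

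**Figure D3:**
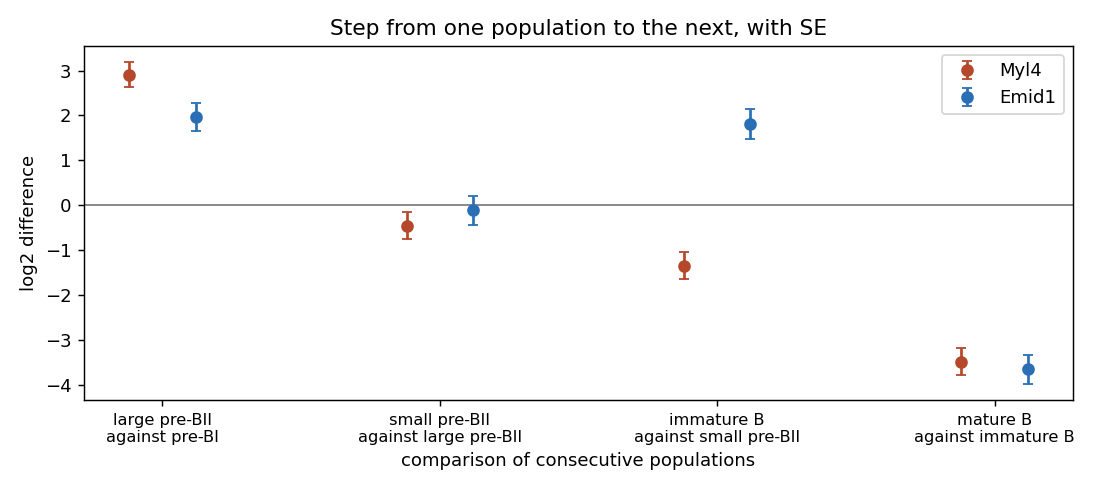
Log2 difference with SE of Myl4 and Emid1 at each step from one population to the next, from the fit over all 26 preparations. The genes were chosen on the first and last steps. Between them, Myl4 lies at −1.34 and Emid1 at 1.81 in immature B against small pre-BII cells.

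Of the 10229 probe sets 5 were called both higher in large pre-BII than pre-BI cells and lower in mature than immature cells, the combination on which the genes were chosen. The place of Myl4 and Emid1 among the 5 follows from that choice and is no result about them. The first of these calls was made for 89 probe sets (0.87%) and the last for 74 (0.723%). In either direction the first step had 327 calls when sort number was a replicate block and 192 when it was not. Besides Myl4 and Emid1, the 5 held Polm, a DNA polymerase of end joining, Pafah1b3, a subunit of platelet-activating factor acetylhydrolase, and 1 probe set without a symbol. The count and these names were read from the values and carry no test. Among the 5, Emid1 was the 1 called higher in immature than in small pre-BII cells, and Myl4 and Pafah1b3 were called lower.

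The genes whose log2 levels over the 26 preparations were most like those of each gene were taken on the same array set, as a description. All points share arrays and normalisation, and the populations dominate r. Among 3813 other genes of the first set, Pafah1b3 was most like Myl4 (Pearson r = 0.951). It averaged 4078, 9499, 10450, 5085 and 2025 from pre-BI to mature cells. Next came Zfpm1, which encodes the GATA cofactor FOG-1 (r = 0.867), Ubl5 (0.853), Psmd8, a proteasome subunit (0.849), Rgs2, a regulator of G protein signalling (0.839), and Bcl2l1, the survival gene of Bcl-xL (0.823).

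Being chosen for their likeness over the same preparations, these genes are given no test. Zfpm1 averaged 863 in immature and 2448 in small pre-BII cells, and 3.95 in mature cells. Bcl2l1 averaged 456 in immature and 1921 in small pre-BII cells, and 121 in mature cells. Of the 6 genes, Zfpm1 alone averaged highest in large pre-BII cells, as Myl4 did, while the others averaged highest in small pre-BII cells. Small and large pre-BII cells were nearly equal for Ubl5 (3474 against 3401) and Psmd8 (2075 against 2044). For Myl4 itself the ranges of these 2 populations overlapped, so the place of the top separates the genes little.

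On the b set 1493 other genes were set against Emid1. The nearest was Rab24, a small GTPase linked to autophagy (r = 0.868), which averaged 686, 1017, 1246, 1848 and 879 from pre-BI to mature cells. The next 5 had r between 0.639 and 0.678. They were Rpp25l, Grn, which encodes progranulin, Srxn1, Capzb, an actin capping protein, and Rac2, a GTPase of blood cells. Grn averaged 1080, 1178, 1388, 2765 and 1120 from pre-BI to mature cells, with its top in immature cells as Emid1 had. Srxn1 lay under the noise limit. Rac2 averaged 20820 in both large pre-BII and immature cells. Quantile normalisation gives a probe set of the same rank on each array the same value, so this equality need not mean equal transcript. Rpp25l averaged higher in small pre-BII (1598) than in immature cells (1428). Of these genes too no difference was tested.

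**Figure D4:**
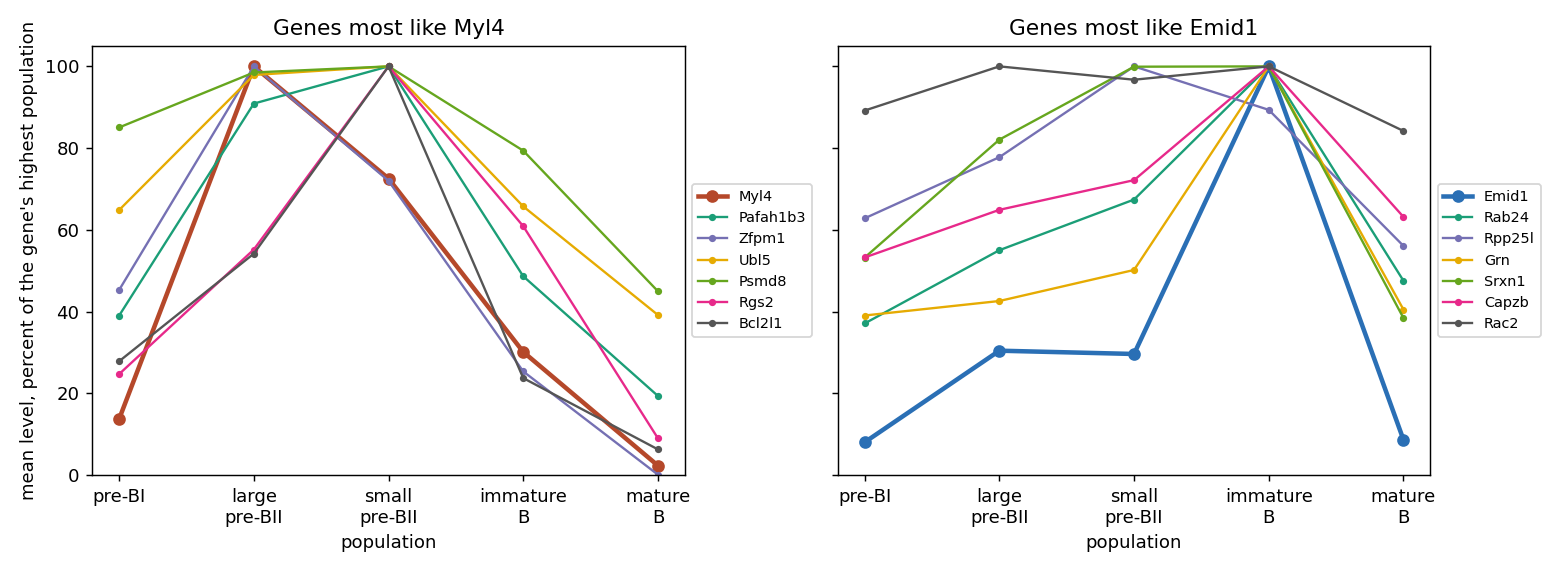
Mean level in each population, as percent of the gene's highest population, for Myl4 and Emid1 (thick lines) and the 6 genes most like each over the 26 preparations (thin lines). Pafah1b3 follows Myl4 most closely (r = 0.951), and Emid1 stands at 30.5% in large pre-BII cells against 100% in immature cells.

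The other myosin light chains and their regulators were examined beside Myl4. Of 20 listed genes 9 were on the arrays by a probe set with 1 symbol and 7 were tested. None rose in large pre-BII against pre-BI cells and 1 fell, where 1.88% of probe sets changed (0.87% higher and 1.01% lower). That gene, Myl10, exceeded the noise limit in 1 preparation, so it has no fold. The median log2 difference of the 7 was 0.06, against 0.00 over all tested probe sets.

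Myl12b, a regulatory light chain of nonmuscle myosin, was the brightest member. It averaged 1933, 2150, 4058, 4697 and 4202 from pre-BI to mature cells. It rose 1.91-fold in small against large pre-BII cells (limma adjusted p = 0.0077) and, at 4202 in mature and 1933 in pre-BI cells, was 2.11-fold higher where Myl4 was lower (limma adjusted p = 0.000518). The striated muscle light chains Myl2, Myl3 and Mylpf exceeded the noise limit in no preparation and Myl1 in 1.

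Of the myosin heavy chain list 14 of 26 genes were tested. In large pre-BII against pre-BI cells 1 of the 14 fell and none rose, where 1.88% of all probe sets changed. In immature against small pre-BII cells none changed, where 2.15% did. Myo7a, an unconventional myosin, fell 2.35-fold in large pre-BII against pre-BI cells (279 against 731, adjusted p = 0.0437) and rose 2.27-fold in small against large pre-BII cells (684 against 279, adjusted p = 0.0349). Myo1c, a class I myosin of membranes, was the brightest of them. It averaged 5037 in immature and 2746 in large pre-BII cells (1.97-fold, adjusted p = 0.0375), all by limma. Myh9, the heavy chain of nonmuscle myosin IIA, averaged 2641, 2032, 2263, 3449 and 3654 from pre-BI to mature cells and changed in no consecutive step.

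Among 5 tested tropomyosin and calmodulin genes, Calm2, a calmodulin gene, rose in large pre-BII against pre-BI cells (7129 against 4110, 1.82-fold, limma adjusted p = 0.0497). It fell in small against large pre-BII cells (4064 against 7129, 1.77-fold, limma adjusted p = 0.042), as did Tpm3 (428 against 956, 2.07-fold, limma adjusted p = 0.0481). Of all probe sets 0.87% rose at the first of these steps and 3.32% fell at the other. No member of this list changed in immature against small pre-BII or in mature against immature cells, where 2.15% and 1.33% of all probe sets did.

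Markers of the tissues in which Myl4 is best known were examined beside it. Of 23 striated muscle genes 17 were on the arrays and 13 tested, and none changed in any of the 4 consecutive steps. Among all probe sets 1.88%, 5.37%, 2.15% and 1.33% changed at these steps, in order of development. Their summed level was 1823 to 2609 in large pre-BII and 1598 to 3416 in pre-BI preparations, and 2367 to 3907 in mature preparations. Tnnc1, Tnnt3, Myl2, Myl3 and Mylpf exceeded the noise limit in no preparation. Only Actc1 and Ckm exceeded it in most preparations of a population, and they did so in all 5 populations.

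Of 10 erythroid genes on the arrays 9 were tested and none changed in a consecutive step, where 1.33% to 5.37% of all probe sets did. Their summed level, mainly of Hba-a1, was 14010 to 23420 in large pre-BII, 11260 to 25430 in pre-BI and 18070 to 24720 in mature preparations. Gata1 and Epb42 exceeded the noise limit in no preparation.

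Some markers of granulocytes, monocytes, T and NK cells fell in large pre-BII against pre-BI cells, the step at which both genes were higher. The summed level of 12 granulocyte and monocyte genes was 4286 to 10920 in large pre-BII and 6292 to 20600 in pre-BI preparations. Of the 10 tested 2 fell, where 1.01% of all probe sets did. They were Lyz2, the lysozyme gene (3033 in large pre-BII against 5503 in pre-BI cells, limma adjusted p = 0.0415), and Ngp, a neutrophil granule gene (1745 against 4187, limma adjusted p = 0.0484). The sum of 8 T and NK cell genes was 586 to 996.5 in large pre-BII and 1020 to 3227 in pre-BI preparations. Of the 6 tested 2 fell, beside the same 1.01% of all probe sets. They were Gzma, a granzyme gene (353 against 1333, limma adjusted p = 0.00669), and Thy1 (−88.5 against 302, limma adjusted p = 6.38e-05). Thy1 exceeded the noise limit in 2 of 26 preparations, so it has no fold. The median log2 difference was −1.04 for the granulocyte and monocyte list, against 0.00 over all tested probe sets. For the T and NK cell list it was 0.20. In each of the 2 populations 6 of the 8 T and NK cell genes exceeded the noise limit in no preparation. Their median thus says little about a fall or its absence. The part of these cells in the levels of Myl4 and Emid1 was not tested.

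At the step where the 2 genes parted, the erythroid sums were 15460 to 21110 in immature and 8195 to 17220 in small pre-BII preparations, those of granulocyte and monocyte genes 5385 to 7753 and 3947 to 5757, of T and NK cell genes 80.6 to 533 and 333 to 1096, of stroma genes 634 to 968 and 343 to 894, and of plasma cell genes 412 to 957 and 468 to 832, in the same order. Of these lists 1 gene changed at this step, where 2.15% of all probe sets did. It was Prtn3, a neutrophil protease gene, which rose by at least 1.24-fold (285 in immature against −5.85 in small pre-BII cells, limma adjusted p = 0.044). The sums count negative values as 0. In immature cells 7 of 8 T and NK cell genes and 5 of 6 stroma genes exceeded the noise limit in no preparation. Those sums thus rest largely on values under that limit. The part of cells of these lists in the result was not tested.

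Relatives of Emid1 were hardly represented. Of 11 other genes with an EMI domain 1, Col26a1, was on the arrays, and it averaged 176.5, 158, 314, 405 and 483 from pre-BI to mature cells and passed in no comparison shown. Of 28 collagen and other matrix genes 26 were on the arrays and 18 tested. None rose in large pre-BII against pre-BI cells, where 0.87% of all probe sets did. In immature against small pre-BII cells none rose and 1 fell, where 1.28% of all probe sets rose and 0.87% fell. That gene was Reln, a matrix glycoprotein best known from the brain, which averaged 203 in immature and 2022 in small pre-BII cells (7.40-fold, limma adjusted p = 5.66e-08). Reln had also risen in small against large pre-BII cells, by at least 7.60-fold (limma adjusted p = 7.39e-10). The matrix list's median difference was −0.17 in immature against small pre-BII cells, against −0.02 over all tested probe sets.

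Genes of the pre-B cell receptor and its transcription factors were compared at the step from small pre-BII to immature cells. Of 20 tested genes 3 fell and 2 rose, where 0.87% of all probe sets fell and 1.28% rose, and the others did not pass. Like the other lists, this one was chosen with earlier results of these data known, so the shares are a description. All 5 that changed encode transcription factors. Irf4, a factor of light chain gene activation, fell 3.28-fold (1375 in immature against 4967 in small pre-BII cells, limma adjusted p = 0.00562). Myb, a factor of precursor survival, fell 3.44-fold (3658 against 12610, limma adjusted p = 3.06e-05), and Tcf12, which encodes the E protein HEB, fell 2.56-fold (895 against 2333, limma adjusted p = 0.00143).

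Irf8, a relative of Irf4, rose 2.91-fold (3238 in immature against 1160 in small pre-BII cells, limma adjusted p = 0.000158). Mef2c, of the MEF2 family, rose 3.63-fold (1143 against 204, limma adjusted p = 0.00181). The list's median at this step was −0.36, against −0.02 over all tested probe sets.

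In large pre-BII against pre-BI cells 4 of the 20 rose and 4 fell, where 0.87% of all probe sets rose and 1.01% fell. Irf4 rose 4.24-fold (2768 against 711, limma adjusted p = 0.00042) and Tcf12 1.99-fold (1796 against 906, limma adjusted p = 0.0268). Blk, a cytoplasmic kinase of receptor signalling, rose 2.57-fold (5856 against 2330, limma adjusted p = 2.71e-05). Syk, the kinase that the receptor recruits, rose 2.02-fold (7324 against 3842, limma adjusted p = 0.00365). The surrogate light chain genes Igll1 and Vpreb1, Lef1 and Irf8 fell. In mature against immature cells 1 of the 20 changed, where 1.33% of probe sets did. It was Myb, which fell 9.27-fold (390 against 3658, limma adjusted p = 2.22e-10).

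**Figure D5:**
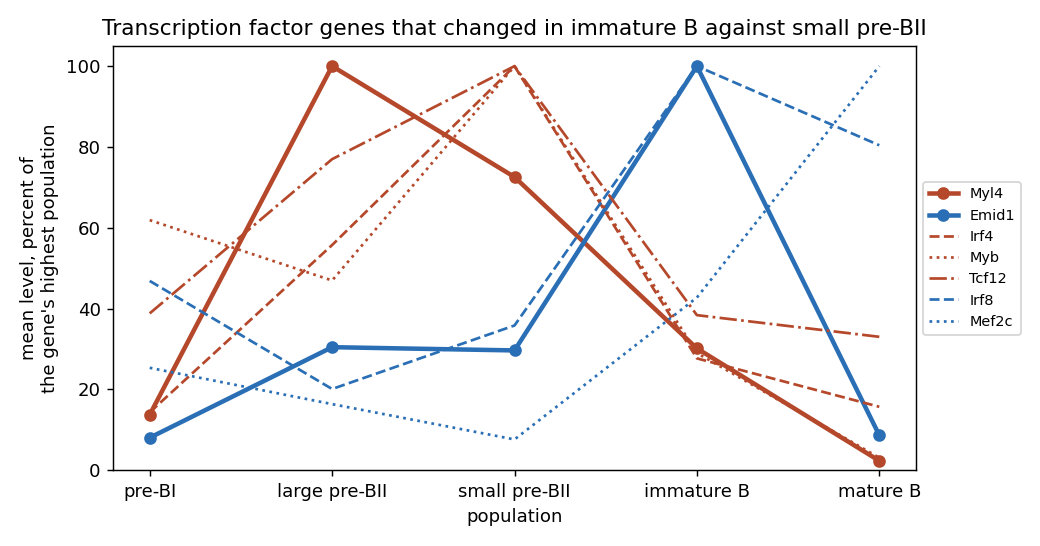
Mean level in each population, as percent of the gene's highest population, for Myl4 and Emid1 (thick lines), for Irf4, Myb and Tcf12, which fell in immature B against small pre-BII cells (red), and for Irf8 and Mef2c, which rose (blue). Irf4 averages 4967 in small pre-BII cells and Irf8 3238 in immature B cells, each its highest population.

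Large pre-BII cells divide, and genes of dividing cells were set beside the 2 genes. In small against large pre-BII cells 17 of 17 tested fell, where 3.32% of all probe sets did. Their median log2 difference was −2.88, against 0.06 over all tested probe sets, whereas Myl4 stood at −0.46 and Emid1 at −0.11. Prc1, a regulator of cytokinesis, was at least 12.7-fold lower in small than in large pre-BII cells, and Mki67, the Ki-67 antigen gene, was 7.77-fold lower (1696 against 12600, limma adjusted p = 1.66e-10). In large pre-BII against pre-BI cells 4 of the 17 rose, Ccnb2, Prc1, Top2a and Ube2c, by 2.18 to 3.52-fold, where 0.87% of all probe sets rose.

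Neighbours on chromosome 11 were compared because both genes lie there. Of the 10 nearest protein-coding genes on each side of Myl4, 9 were on the arrays and 8 tested. None of the 8 changed in any of the 4 consecutive steps, where 1.33% to 5.37% of all probe sets did. Most of the 8 averaged under the noise limit in every population, so their lack of change says little. Of those around Emid1, 8 were on the arrays and tested. None changed in large pre-BII against pre-BI, immature against small pre-BII or mature against immature cells, where 1.88%, 2.15% and 1.33% of all probe sets did. In small against large pre-BII cells 2 of the 8 did, where 5.37% of all probe sets did and Emid1 did not pass. Dbnl, an actin-binding adaptor, rose 2.32-fold (2832 against 1281, limma adjusted p = 0.0154), and Ewsr1, an RNA-binding protein gene, fell 2.01-fold (566 against 1125, limma adjusted p = 0.0222).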

How the data were processed

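RNA of 5 sorted populations was measured on 2 array sets, and the authors deposited 1 intensity per probe set and array on a linear scale, with negative values. The 28 and 27 arrays came from 26 preparations. The steps from scan to intensity are not given in the sources used here.

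After removal of 110 control probe sets, each table was quantile-normalised between arrays, since the 2% trimmed means of its arrays differed 5.6-fold and 4.22-fold. A floor at each table's 40th percentile (87.6 and 6.89) was set before taking log2. Second arrays of a preparation were averaged with its first. Probe sets above the floor in at least 5 preparations were tested by limma 3.58.1 (under R 4.3.3; lmFit, then eBayes with its trend option) in a fit of all preparations per array set, with Benjamini-Hochberg adjustment over both sets within a comparison and a threshold of 0.05.

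Folds are between means of log2 values raised to the noise limit. A fold written "at least" has no preparation above that limit on its lower side. Negative intensities set that limit, which 40% of first-set and 20.1% of b-set values exceeded. Levels are not comparable between the array sets, or between probe sets. The name of each gene's probe set ends in _s_at, a class whose probes can match more than 1 transcript.

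Symbols came from the platform annotation: 7542 probe sets had 1, 224 several and 5303 none, and only those with 1 were named. The promoter sequences and gene positions are RefSeq's. The 2 genes and all gene lists were chosen with earlier results of these data known. Named genes were both genes with all their probe sets, from each list up to 4 members that passed and the brightest, the 6 most similar genes, and up to 3 neighbours. Further named genes of the lists (Myh9, Blk, Syk and Mef2c) were chosen after their values were seen.

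The sort numbers are the labels', with nothing said of shared days or animals. Residuals about the population means correlated, for equal numbers, at 0.138 to 0.251 in 3 pairs of immature and small pre-BII cells, 0.114 to 0.296 in 5 pairs of large pre-BII and pre-BI cells, and at 0.118 to 0.207 in 4 pairs of mature and immature cells, each over 0.1. They were 0.00351 to 0.246 (small and large pre-BII) and −0.07 to 0.11 (immature and large pre-BII) elsewhere. The tests printed do not use the pairing, and the block of sort numbers was an alternative. The script was tested on simulated data with changes set between small pre-BII and immature cells. It recovered 23.4% of 94 changes of 1 and 53.8% of 106 changes of 2 on the log2 scale, with 2 false calls among 81. A gene that did not pass may thus have changed. The number of arrays limits the precision. Alternatives were other scalings, floors and filters, blocks for sort number or sort range, fits within sort ranges, left-out arrays and preparations, and an exact permutation test.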

Additional observations from a re-analysis of the deposited data

How the results depend on the processing

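In immature against small pre-BII cells 6 of 14 alternatives and 10 of 26 left-out preparations move the values of the 2 genes, and the direction of each gene was the same in all of these. The rest alter only the spread or the adjustment. With groups that did not overlap, the fits without single preparations or within a range of sorts could not turn that direction. Without single preparations the log2 differences ran from −1.56 to −1.19 (Myl4) and 1.55 to 1.95 (Emid1) in immature against small pre-BII, −2.01 to −1.64 and 1.59 to 1.83 in immature against large pre-BII, −0.55 to −0.37 and −0.25 to 0.15 in small against large pre-BII, 2.82 to 3.04 and 1.77 to 2.07 in large pre-BII against pre-BI, and −3.69 to −3.28 and −3.82 to −3.40 in mature against immature cells. The sign of Emid1 in small against large pre-BII cells turned in 1 of 26 fits (0.15, without small pre-BII sort 3). In immature against small pre-BII cells the adjusted p no longer passed in the values as deposited for Myl4 (−1.16). Nor did it within sorts 1 to 3 for both genes (−0.85 for Myl4, 2.28 for Emid1), where 2 preparations a population remain. Immature against large pre-BII cells is described without a test. Its difference was −1.66 for Myl4 in the values as deposited, and −1.50 for Myl4 and 2.03 for Emid1 within sorts 1 to 3. The exact permutation test of Myl4 alone passed in small against large pre-BII cells (−0.46, p = 0.0476, adjusted p from 0.317 to 0.939 under the other alternatives). Myl4 in mature against immature cells was −2.35 with the floor raised to the 60th percentile or to the noise limit (−2.35), since both floors lie above its mature levels. Sort number as a replicate block changed no call of either gene (immature against small pre-BII, −1.14 for Myl4 and 1.84 for Emid1).

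Counts of called probe sets, for small against large pre-BII, immature against small pre-BII, immature against large pre-BII, large pre-BII against pre-BI and mature against immature cells, were 549, 220, 825, 192 and 136. They were 224, 75, 449, 49 and 51 in the values as deposited and 132, 42, 265, 16 and 18 within sorts 1 to 3. Within sorts 8 to 11 they were 144 in immature against small pre-BII, 71 in large pre-BII against pre-BI and 72 in mature against immature cells. The replicate block of sort numbers gave 327 in large pre-BII against pre-BI cells. The share of higher calls was 38.1% and 59.5% in the first pair of comparisons, against 20.5% and 70.7% as deposited. Other scalings moved the median of all probe sets by at most 0.099 (log2), in large pre-BII against pre-BI cells in the values as deposited.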

Other observations

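In all, 2 preparations were read on a second array that enters the values above as a mean. For large pre-BII sort 1 the 2 first-set arrays gave Myl4 levels of 5741 and 5577. For mature B sort 3 the 2 b-set arrays gave Emid1 levels of 364 and 790, one close to and one well above the noise limit of 319.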
